A study of Mus musculus with 62 samples.

Results

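The transcripts described here are those of the mouse mitochondrial genome, the small circular DNA that mitochondria keep. They were chosen as every row of the expression table whose gene symbol starts with mt-, which gave 37 of the 47643 listed genes: 13 protein-coding genes, 2 ribosomal RNA genes and 22 transfer RNA genes. They were followed in RNA-seq of soleus, a calf muscle rich in oxidative fibres, from female mice given as 2 months old. The animals had been injected with melanoma cells that cause cachexia, the tissue wasting seen with some tumours (CAC), with melanoma cells that do not (NCAC), or had a mock injection (Con), and muscle was taken 2, 4, 6 or 8 weeks later. Each of the 12 groups of treatment and week holds 5 libraries, except CAC at 8 weeks with 7, which makes 62 libraries. The sample labels give the strain as C57BL6/J and the series' design text names athymic nude mice, so the strain is left unstated, and the protocol text also mentions LLC cells. All groups share the tissue, sex and stated age, and the protocol text speaks of biological replicates. Values are relative transcript abundances (TPM), which are scaled by gene length and add to the same total in every library, so the depth behind a value is unknown and a higher level of some genes lowers the others.

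The mitochondrial genome encodes core subunits of the respiratory chain: parts of complex I, which takes electrons from NADH, of complex III, which passes them to cytochrome c, of complex IV, which hands them to oxygen, and of complex V, the ATP synthase. Both DNA strands are transcribed into long precursors by the polymerase Polrmt with the factors Tfam and Tfb2m, and most messages are released by cutting out the tRNAs that lie between them. All other subunits of these complexes are encoded in the nucleus, imported and assembled with the mitochondrial ones, and oxidative muscle is among the tissues with the most such transcripts.

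In the GENCODE M21 annotation of mm10, the build named in the submitters' processing notes, 12 of the 13 protein-coding genes lie on the plus strand of chrM. mt-Nd6 (chrM:13552-14070) is on the minus strand, and its sense sequence is 28.1% G and 6.0% C, whereas the other 12 range from 5.9% to 16.1% G and from 22.1% to 30.0% C. Several neighbours overlap, and the overlaps are shown because reads that lie wholly within them cannot be given to 1 gene without a rule. The longest is between mt-Atp8 (chrM:7766-7969) and mt-Atp6 (chrM:7927-8607), which share 43 bases. In the lines below, each read 5′ to 3′ from GENCODE M21, capitals mark the bases that a gene shares with its neighbour.
mt-Atp8: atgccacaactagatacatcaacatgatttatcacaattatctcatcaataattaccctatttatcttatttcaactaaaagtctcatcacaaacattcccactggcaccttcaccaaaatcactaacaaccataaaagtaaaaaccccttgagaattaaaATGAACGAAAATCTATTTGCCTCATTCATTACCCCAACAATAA
mt-Atp6, first bases: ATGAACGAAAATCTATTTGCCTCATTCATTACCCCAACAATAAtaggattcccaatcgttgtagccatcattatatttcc
The whole of mt-Atp8 and the start of mt-Atp6 (chrM:7927-8006) are printed. mt-Nd4l and mt-Nd4 share 7 bases in the same direction, shown at the end of mt-Nd4l (chrM:10094-10173) and the start of mt-Nd4 (chrM:10167-10246).
mt-Nd4l, last bases: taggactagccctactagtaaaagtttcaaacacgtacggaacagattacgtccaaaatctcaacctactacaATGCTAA
mt-Nd4, first bases: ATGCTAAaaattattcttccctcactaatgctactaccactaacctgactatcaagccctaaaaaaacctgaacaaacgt
mt-Nd5 and mt-Nd6 share 14 bases on opposite strands, so the capitals of these lines are reverse complements of each other. The ends of mt-Nd5 (chrM:13486-13565, plus strand) and of mt-Nd6 (chrM:13552-13631, minus strand) are printed.
mt-Nd5, last bases: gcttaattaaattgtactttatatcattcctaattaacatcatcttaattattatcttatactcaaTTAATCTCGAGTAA
mt-Nd6, last bases: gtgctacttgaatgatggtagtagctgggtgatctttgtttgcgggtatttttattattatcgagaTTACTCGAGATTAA
mt-Co3 (chrM:8607-9390), mt-Nd4 (chrM:10167-11544) and mt-Cytb (chrM:14145-15288) end in 1 base, a T, past the last whole codon, a stop codon that is known to be completed by polyadenylation. Their last bases are shown with that T in capitals.
mt-Co3, last bases: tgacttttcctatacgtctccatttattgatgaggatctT
mt-Nd4, last bases: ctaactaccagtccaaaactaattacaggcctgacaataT
mt-Cytb, last bases: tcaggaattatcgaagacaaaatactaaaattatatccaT

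The 2 rRNA genes, mt-Rnr1 and mt-Rnr2, and all 22 tRNA genes were listed at 0 TPM in all 62 libraries, so no value of theirs can be compared. The same holds for all other listed rRNA, snRNA, snoRNA and miRNA genes (353, 1382, 1439 and 2145 genes, the mitochondrial rRNAs not included in the first). The 13 mRNAs were all among the 13529 genes that reached at least 1 TPM in at least 5 libraries and were tested. Nuclear copies of mitochondrial sequence match some members almost base for base: Gm28437 is 100% identical to mt-Co3 over 783 bases, Gm28661 100% to mt-Co2 over 681 bases, Gm10925 100% to mt-Atp6 over 678 bases and Gm28438 99.7% to mt-Nd3 over 345 bases. These copies, and Gm28439, Gm29216 and Gm10222 (like mt-Nd4, mt-Co1 and mt-Nd4l), were listed at 0 TPM, and reads from a copy cannot be told apart from those of its mitochondrial gene.

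Before any comparison, the 8-week libraries stood apart in the cell type markers. The summed level of 13 muscle fibre genes, all of them among the tested genes, was 82678 to 120363 TPM in the 45 libraries of weeks 2 to 6 and 39630 to 88232 TPM in the 17 of week 8. The summed level of 12 macrophage genes was 67.4 to 403 TPM before week 8 and 435 to 3261 TPM at week 8, where the lowest value was that of NCAC replicate 2 and the other 4 NCAC libraries held 1454 to 3261 TPM. In bulk tissue, fewer cells of a type and less RNA per cell cannot be told apart. Libraries of at least 500 TPM of Myh4, a myosin heavy chain of some fast fibres, were CAC replicate 4 at 2 weeks, NCAC replicate 3 at 6 weeks and CAC replicate 6 at 8 weeks. Results that rest on NCAC replicate 2 or change without the Myh4 libraries are given with and without them.

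mt-Co1, the catalytic subunit of complex IV, was the highest gene of the table in all 62 libraries. The other 11 plus-strand mRNAs were among the 50 highest in each library. mt-Nd6, the single message of the minus strand, ranked between 180 and 2168 and varied the most, with a highest level 12.2-fold its lowest over all libraries and a coefficient of variation of 32.1% over the 45 libraries of weeks 2 to 6. Next in that coefficient were mt-Nd3 at 15.3%, mt-Nd5 at 13.1% and mt-Atp8 at 12.8%, and mt-Atp6 was lowest at 6.92%. In Con at 6 weeks mt-Co1 stood at 86221 ± 1614 TPM (SD, n = 5), mt-Cytb, the cytochrome b of complex III, at 32051 ± 750 TPM, and mt-Nd6 at 194 ± 27.3 TPM.

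**Figure D1:**
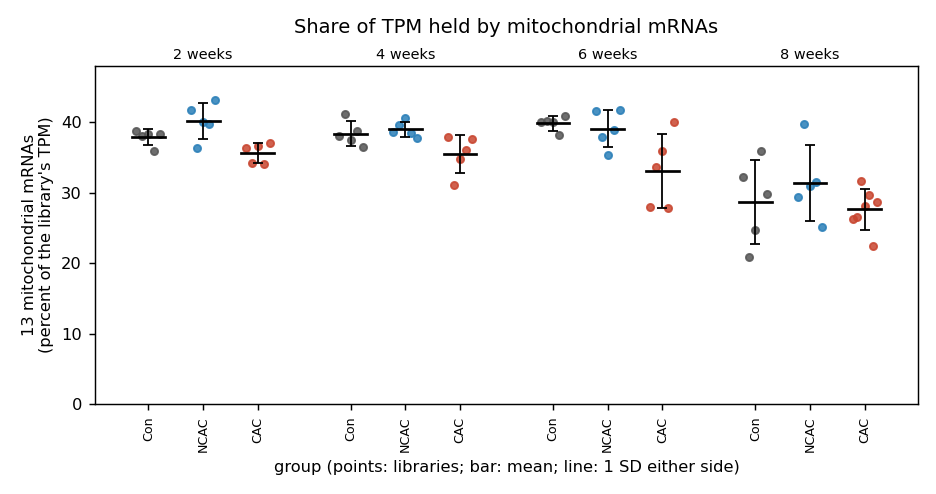
Share of all TPM taken by the 13 mitochondrial mRNAs (percent, y axis) in each of the 62 libraries, by week and treatment; points are libraries, bars the group means and lines 1 SD either side. Con and NCAC of weeks 2 to 6 lie between 35.3% and 43.2%, CAC at 6 weeks spreads from 27.8% to 40.0%, and week 8 from 20.9% to 39.8%.

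Together the 13 mRNAs made up a large and steady part of the TPM of Con before week 8. The share was 37.9 ± 1.11%, 38.4 ± 1.76% and 39.8 ± 1.02% (SD, n = 5 each) in Con at 2, 4 and 6 weeks. In CAC it was 35.6 ± 1.40%, 35.5 ± 2.75% and 33.1 ± 5.23% (SD, n = 5 each) at the same weeks. The 5 CAC libraries at 6 weeks held 28.0%, 33.7%, 35.9%, 27.8% and 40.0%. Replicate 5 alone lay within the range of Con (38.1% to 40.9%), and replicates 1 and 4 lay lowest. At 8 weeks the mean share was lower than at 6 weeks in each treatment: 28.7 ± 5.97% in Con (n = 5), 31.4 ± 5.33% in NCAC (n = 5) and 27.6 ± 2.90% in CAC (n = 7). NCAC replicate 2, at 39.8%, was the one 8-week library within the range of Con at 6 weeks. These shares are given as descriptions, and the tests below are per gene.

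At 2 weeks no member passed the test in any comparison of treatments. With limma over 13529 genes, 0 of 13 members passed in CAC against Con, against a background of 0.0% of all tested genes, and 0 had an unadjusted p under 0.05. Of the 13 log2 fold changes 12 lay below 0, with a median of −0.10 beside 0.06 over all genes. The exception was mt-Nd6 at 0.09. The others were mt-Nd5 at −0.16, mt-Nd3 at −0.14, mt-Nd4l at −0.13, mt-Cytb at −0.11, mt-Nd2, mt-Nd4, mt-Co1 and mt-Co2 at −0.10, mt-Co3 at −0.08, mt-Nd1 at −0.06, mt-Atp6 at −0.04 and mt-Atp8 at −0.03. In CAC against NCAC 0 of 13 passed (background 0.503%), 6 had an unadjusted p under 0.05, and all 13 values lay below 0 with a median of −0.17. The lowest adjusted p there was 0.0882, for mt-Nd4 at −0.21, and mt-Atp8 at −0.36, mt-Nd5 at −0.35 and mt-Nd4l at −0.31 lay farthest from 0. mt-Nd4l, mt-Nd4 and mt-Nd5 did not overlap (0.946% of all tested genes lower). In NCAC against Con 0 of 13 passed (background 0.00739%). mt-Co2, mt-Co3 and mt-Cytb in CAC lay below every Con library, where 0.14% of all tested genes did so, and mt-Cytb stood at 29052 ± 724 TPM in CAC and 31379 ± 401 TPM in Con (SD, n = 5 each).

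At 4 weeks the complex I messages mt-Nd4l and mt-Nd5 came nearest to the threshold. In CAC against NCAC 0 of 13 members passed (limma, background 5.84% in either direction), with mt-Nd4l at −0.22 ± 0.06 (log2, SE; adjusted p = 0.0505) and mt-Nd5 at −0.26 (adjusted p = 0.0511). mt-Nd4l stood at 15736 ± 1122 TPM in CAC, 18313 ± 397 TPM in NCAC and 18286 ± 702 TPM in Con (SD, n = 5 each), and CAC overlapped neither group, which 0.806% and 0.976% of all tested genes also showed in the lower direction. In CAC against Con 0 of 13 passed (background 1.03%), 3 had an unadjusted p under 0.05, all 13 lay below 0 with a median of −0.13 beside 0.06 over all genes, and the lowest adjusted p was 0.0929, for mt-Nd4l. mt-Nd6 was farthest from 0, at −0.47 against Con and −0.50 against NCAC, and mt-Atp6 nearest, at −0.06 in both. mt-Nd1, mt-Nd2 and mt-Co2 lay at −0.15, −0.19 and −0.12 against Con and at −0.20, −0.19 and −0.17 against NCAC. Without CAC replicate 1 the count was 1 against Con and 3 against NCAC, and without CAC replicate 5 it was 2 against NCAC. In NCAC against Con 0 of 13 passed (background 0.00739%).

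At 6 weeks 7 of the 13 mitochondrial mRNAs fell in CAC against Con and none rose. The fallen messages came from complexes I, III and IV, at log2 fold changes of −0.45 to −0.34, and the 2 messages of complex V did not pass. The background was 3.87% of all tested genes lower and 23.5% higher, and the median over the 13 members was −0.34 beside 0.16 over all genes. All 13 values lay below 0. Under median-of-ratios rescaling, which centres the median of all genes near 0, the members' median was −0.53 and 4 members passed, while the split of all tested genes moved from 3181 higher and 524 lower to 1528 higher and 1510 lower.

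Of complex I, mt-Nd3 stood at 5389, 7013, 6623, 4797 and 7764 TPM in CAC at 6 weeks. In Con it stood at 7656, 8708, 9001, 7952 and 9300 TPM, and in NCAC at 9656, 8117, 7865, 9508 and 10431 TPM. Only CAC replicate 5 reached the level of the lowest Con library, and all CAC libraries lay below all NCAC libraries (2.21% of all tested genes lower). On the log2 scale mt-Nd3, a small membrane subunit, fell by 0.45 ± 0.13 against Con (SE, limma, adjusted p = 0.0176). mt-Nd1 fell by 0.38 ± 0.13 (adjusted p = 0.0388), mt-Nd2 by 0.35 ± 0.10 (adjusted p = 0.0233) and mt-Nd5 by 0.37 ± 0.12 (adjusted p = 0.0302). Not past the threshold were mt-Nd4 at −0.25 (adjusted p = 0.0699), mt-Nd4l at −0.23 (adjusted p = 0.121) and mt-Nd6 at −0.34 (adjusted p = 0.145).

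Of complex III, mt-Cytb stood at 22072, 27788, 24411, 22129 and 30640 TPM in CAC and at 32624, 31490, 32062, 31142 and 32936 TPM in Con at 6 weeks. Every CAC library lay below every Con library, as in 2.31% of all tested genes, and mt-Cytb fell by 0.35 ± 0.10 (log2, SE, adjusted p = 0.0228). Of complex IV, mt-Co3 stood at 34149, 41946, 43180, 34067 and 49556 TPM in CAC and at 49979, 51691, 51265, 49561 and 52078 TPM in Con, again with no overlap; CAC replicate 5 lay just under the lowest Con library. mt-Co3 fell by 0.34 ± 0.11 (adjusted p = 0.0371) and mt-Co2, a copper-binding subunit, by 0.35 ± 0.12 (adjusted p = 0.0365). mt-Co1 was at 71223 ± 10639 TPM in CAC and 86221 ± 1614 TPM in Con (SD, n = 5 each), a log2 fold change of −0.29 that did not pass (adjusted p = 0.0596). The complex V messages had the values nearest to 0, with mt-Atp6 at −0.11 (adjusted p = 0.452) and mt-Atp8 at −0.13 (adjusted p = 0.467). Within the mitochondrial mRNA, mt-Atp6 therefore took 12.99 ± 0.54% in CAC, where the mean over the 15 Con libraries of weeks 2 to 6 was 11.6%.

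The count at 6 weeks rests on few libraries and on the filter for low values. Without that filter 0 of 13 passed against Con at the same fold changes, with mt-Nd3 at ± 0.15 (SE, adjusted p = 0.0643) and mt-Co3 at ± 0.34 (adjusted p = 0.576), and mt-Nd3 and mt-Nd6 passed against NCAC. Without CAC replicate 1 the count against Con was 0, without replicate 4 it was 1 (mt-Nd3), without replicate 5 it was 10, and without any 1 of the Con libraries it was 3 or 4. Replicates 1 and 4 held the lowest shares and replicate 5 the highest.

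**Figure D2:**
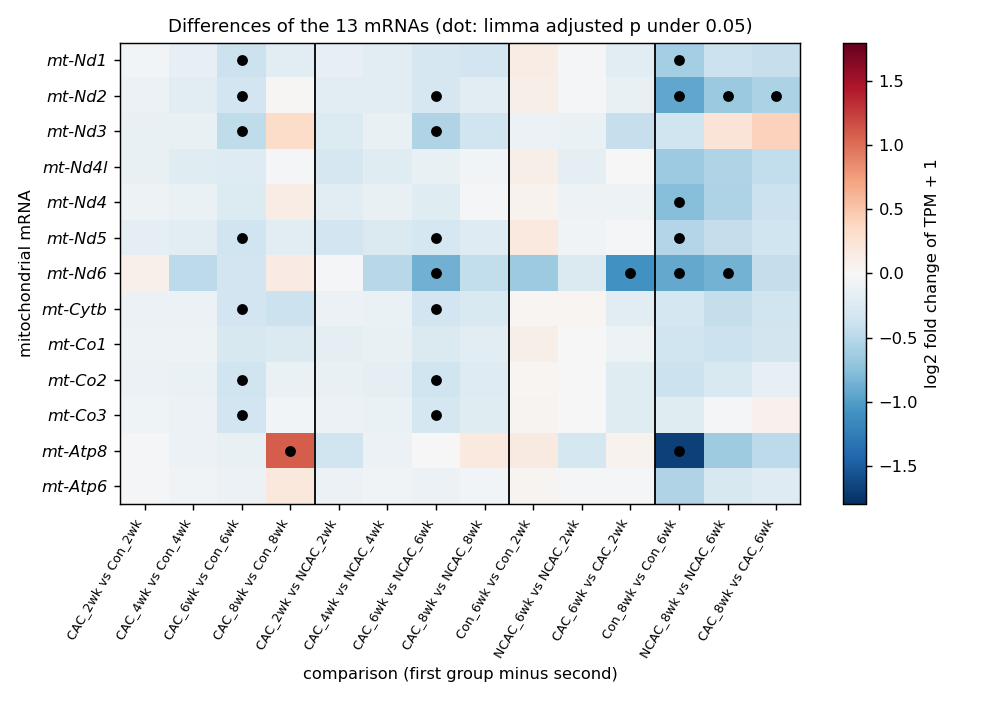
Heat map of log2 fold changes (TPM + 1, colour scale: blue lower, red higher in the first group) of the 13 mRNAs (rows) in 14 comparisons of treatments or weeks (columns); a black dot marks an adjusted p under 0.05. CAC at 6 weeks is below 0 for all 13 against Con, and the darkest cell is mt-Atp8 in Con at 8 against 6 weeks, at −1.69.

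Against NCAC at 6 weeks, 7 of 13 members fell in CAC as well (background 4.86% lower and 27.8% higher), and 6 of them had fallen against Con. These 6 were mt-Nd2, mt-Nd3, mt-Nd5, mt-Cytb, mt-Co2 and mt-Co3, and both comparisons use the same CAC libraries. mt-Nd1, at −0.30 (adjusted p = 0.0851), passed against Con only, and mt-Nd6 against NCAC only, which does not show that these differences differ. mt-Nd6 stood at 145, 236, 102, 124 and 182 TPM in CAC, at 273, 261, 245, 270.5 and 337 TPM in NCAC, and at 167, 202, 188, 175 and 236 TPM in Con. The CAC libraries lay below all NCAC libraries and the Con libraries lay between, overlapping CAC and not NCAC.

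On the log2 scale mt-Nd6 fell by 0.86 ± 0.18 in CAC against NCAC (SE, limma adjusted p = 0.00209), with the largest change of the 13. In NCAC against Con it was at 0.52 ± 0.18 (unadjusted p = 0.00901, adjusted p = 1), without overlap (0.103% of all tested genes higher), and 0 of 13 members passed there (background 0.0%). mt-Nd3 fell by 0.54 ± 0.13 in CAC against NCAC (adjusted p = 0.00521), mt-Cytb by 0.35 (adjusted p = 0.0178) and mt-Co2 by 0.35 (adjusted p = 0.031). mt-Nd2 fell by 0.31 (adjusted p = 0.0344), mt-Nd5 by 0.31 (adjusted p = 0.0481) and mt-Co3 by 0.32 (adjusted p = 0.0405). Not past the threshold were mt-Co1 at −0.26, mt-Nd4 at −0.22, mt-Nd4l at −0.14, mt-Atp6 at −0.11 and mt-Atp8 at 0.01, the last of which lay below 0 under another scaling. mt-Nd3 and mt-Nd6 passed without each library in turn, and the count of members ranged from 2, without NCAC replicate 5, to 10, without CAC replicate 5. It was 3 without CAC replicate 1, CAC replicate 4 or NCAC replicate 1. Of all tested genes 3758 were higher and 658 lower, which became 1988 and 1829 under median-of-ratios rescaling, where the members' median was −0.50.

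Nuclear subunits of the same complexes fell as well at 6 weeks, with medians nearer to 0 than that of the mitochondrial members. In CAC against Con, 10 of 36 tested complex I subunits fell and 1 rose (median −0.17), 4 of 9 of complex III fell (median −0.25), 6 of 12 of complex IV fell (median −0.21) and 4 of 15 of complex V fell (median −0.16). The median over all genes was 0.16. Cox7a1, the muscle form of a complex IV subunit, fell by 0.82 (adjusted p = 0.0129), from 723 ± 93.2 TPM in Con to 434 ± 163 TPM in CAC. Uqcrfs1, the Rieske iron-sulfur protein of complex III, fell by 0.38 (adjusted p = 0.00621), Ndufb8 of complex I by 0.41 (adjusted p = 0.00619) and Atp5j of complex V by 0.40 (adjusted p = 0.005). In complex V the nuclear median lay near the values of mt-Atp6 and mt-Atp8.

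**Figure D3:**
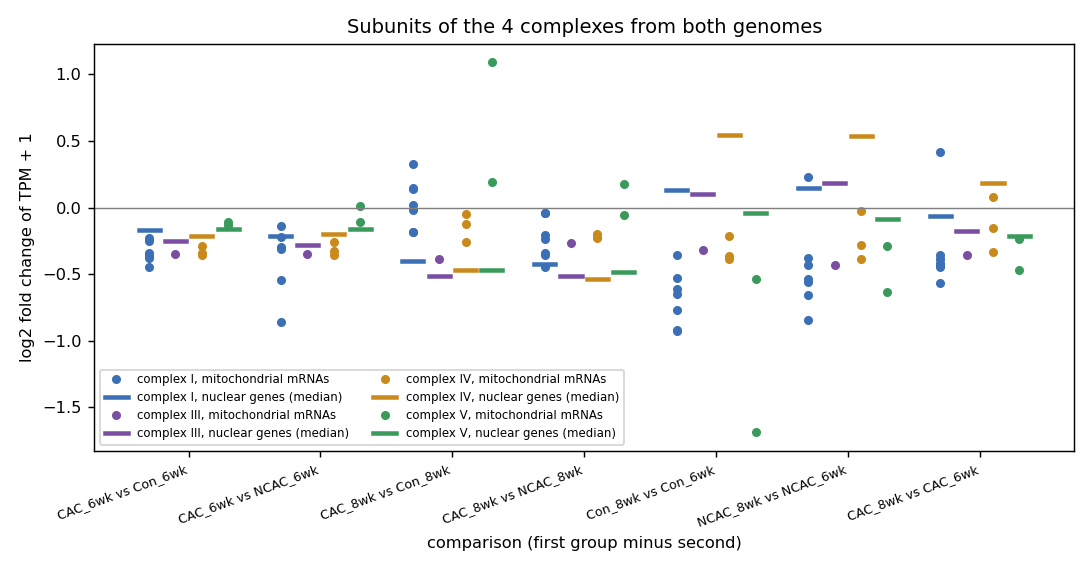
Log2 fold changes of the mitochondrial members (points) of complexes I, III, IV and V, beside the median over the nuclear subunits of the same complex (bars), in 7 comparisons. CAC at 6 weeks has points and bars below 0 in all 4 complexes against Con, and Con at 8 against 6 weeks has points below 0 with bars near or above 0.

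Among the nuclear genes that act on the mitochondrial genome, few changed at 6 weeks. In CAC against Con, Tfam, which packages mitochondrial DNA and starts its transcription, fell by 0.22 ± 0.08 (SE, adjusted p = 0.0497), from 23.2 ± 1.75 TPM to 19.7 ± 1.38 TPM. Nrf1, a nuclear regulator of respiratory genes, rose by 0.25 (adjusted p = 0.0402). Not past the threshold were Polrmt at 0.23 (adjusted p = 0.0584), Tfb2m at 0.15 (adjusted p = 0.255), Ppargc1a, a coactivator of mitochondrial biogenesis, at 0.41 (adjusted p = 0.169), and the mRNA-stabilising partners Lrpprc at −0.24 (adjusted p = 0.076) and Slirp at −0.04 (adjusted p = 0.76). Of 35 tested RNA processing genes 5 rose and 0 fell, with a median of 0.10 beside 0.16 over all genes, of which 23.5% were higher. The 5 include Trit1, which modifies tRNAs, at 0.25 (adjusted p = 0.0195), Hsd17b10, a part of mitochondrial RNase P, at 0.26 (adjusted p = 0.0356), Dhx30 and Angel2. Of 15 genes for the upkeep of mitochondrial DNA 1 fell, Tfam, and of 14 translation factors 0 passed.

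Against NCAC at 6 weeks, Tfam fell by 0.26 (adjusted p = 0.0247) and Lrpprc by 0.28 (adjusted p = 0.0356), and Polrmt was at 0.21 (adjusted p = 0.0716). Mterf2, a mitochondrial transcription factor of the Mterf family, fell by 0.66 (adjusted p = 0.0195). Tufm, the mitochondrial elongation factor, fell by 0.26 (adjusted p = 0.0455). Among 15 tested transcription genes 1 rose and 2 fell, and among 15 for the upkeep of mitochondrial DNA 1 rose and 1 fell. Tfam is in both lists. Among 35 RNA processing genes 2 rose and 2 fell, and among 14 translation factors 0 rose and 3 fell. The shares over all tested genes were 27.8% higher and 4.86% lower. In this comparison 15 of 36 nuclear complex I subunits fell and 1 rose, and 7 of 9, 4 of 12 and 6 of 15 fell in complexes III, IV and V.

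Markers of some other cell types also differed in CAC against Con at 6 weeks, where 23.5% of all tested genes were higher and 3.87% lower. Macrophage markers rose in CAC against Con in 7 of 12 genes (median 0.58), and their summed level was 261 ± 25.6 TPM in CAC and 157 ± 12.9 TPM in Con (SD, n = 5 each), without overlap. Adipocyte markers rose in 6 of 10 genes, while of 13 muscle fibre markers 2 rose and 1 fell (median 0.09). Of 10 endothelial markers 5 rose and 1 fell, and neutrophil markers rose in 4 of 4 tested genes. Fibro-adipogenic progenitor markers rose in 1 of 10, tendon cell markers fell in 3 of 10, and 0 of 5 erythroid markers passed. The part of these markers in the fall of the mitochondrial mRNAs was not tested.

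At 8 weeks mt-Atp8 was the one member called between treatments. In CAC against Con 1 of 13 members passed, in the higher direction, a count near the background (6.31% higher and 4.26% lower). The median over the members was −0.02 beside 0.00 over all genes. mt-Atp8, the small membrane subunit of the ATP synthase, stood at 10577, 4711, 6777, 13854 and 8885 TPM in Con. In the 7 CAC libraries its lowest level was 14027, its median 17044 and its highest 25181 TPM, so that each lay above every Con library (3.98% of all tested genes were higher without overlap). In Con its mean went from 27089 TPM at 6 weeks to 8961 TPM at 8 weeks. In CAC its mean went from 25202 to 18150 TPM, so CAC was not above its own 6-week level. NCAC at 8 weeks had a mean of 17557 TPM. On the log2 scale mt-Atp8 in CAC at 8 weeks lay above Con by 1.09 ± 0.34 (SE, limma adjusted p = 0.0497). That call is at the edge of the threshold: it was lost without any 1 of 10 of the 12 libraries (kept without CAC replicate 6 or Con replicate 4), and under a pseudocount of 0.1, no filter and either rescaling. All tested genes split into 854 higher and 576 lower, and into 845 and 865 after median-of-ratios rescaling.

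mt-Atp8 in NCAC at 8 weeks stood at 19343, 26176, 17651, 18650 and 5964 TPM, of which replicate 5 lay within the Con range and the other 4 above it. In NCAC against Con its log2 fold change was 0.92 (adjusted p = 0.516), and 0 of 13 members passed, as did 0 of 13529 genes (limma, background 0.0%), with 1205 genes and 2 members at an unadjusted p under 0.05. mt-Nd3 was at 0.68 (adjusted p = 0.516) and mt-Nd6 at 0.60 there. mt-Nd3 stood at 11285, 11095, 10995, 11814 and 8410 TPM in NCAC and at 7117, 4462, 6420, 8506 and 7409 TPM in Con, with only NCAC replicate 5 within the Con range. In CAC against NCAC 0 of 13 passed (background 21.9%), 12 lay below 0 and the median was −0.22 beside 0.16 over all genes; the split of all tested genes, 2606 higher and 362 lower, became 721 and 762 after median-of-ratios rescaling. The other values in CAC against Con ran from −0.39 for mt-Cytb to 0.32 for mt-Nd3, with adjusted p of 0.276 to 0.979. mt-Atp6, which is read from 1 transcript with mt-Atp8, was at 0.19 (limma adjusted p = 0.661). The call of mt-Atp8 thus did not extend to the rest of that transcript. The complex IV messages mt-Co1, mt-Co2 and mt-Co3 lay at −0.26, −0.12 and −0.05, and mt-Nd1, mt-Nd2, mt-Nd4l, mt-Nd4, mt-Nd5 and mt-Nd6 at −0.19, 0.02, −0.02, 0.14, −0.19 and 0.15. Values this close to 0 change sign with the scaling, as mt-Nd2 does. Macrophage and adipocyte markers had 0 of 12 and 0 of 10 calls in this comparison, and of 13 muscle fibre markers 1 rose and 3 fell (median −0.33).

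Nuclear subunits of these complexes fell in CAC at 8 weeks. Against Con, 15 of 36 fell in complex I (median −0.40), 4 of 9 in III (median −0.52), 4 of 12 in IV (median −0.47) and 5 of 15 in V (median −0.47), and 0 rose. Cox7a1 fell by 1.44 (adjusted p = 0.00156), from 1145 ± 237 TPM in Con to 434 ± 131 TPM in CAC. Against NCAC, 22, 5, 9 and 8 of these subunits fell. The mitochondrial members of complexes I, III and IV had 0 calls beside these, a difference that was not tested. Of the factors named, none passed against Con, with Tfb2m at 0.35 (adjusted p = 0.0729), Tfam at −0.20 (adjusted p = 0.144) and Slirp at −0.51 (adjusted p = 0.177), Lrpprc at −0.09, Polrmt at 0.15 and Ppargc1a at 0.48. Against NCAC, Polrmt rose by 0.50 (adjusted p = 0.0292) and Tfb2m by 0.36 (adjusted p = 0.0442), Slirp fell by 0.78 (adjusted p = 0.0263), and Tfam (−0.05), Lrpprc (0.12) and Ppargc1a (0.79, adjusted p = 0.206) did not pass.

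**Figure D4:**
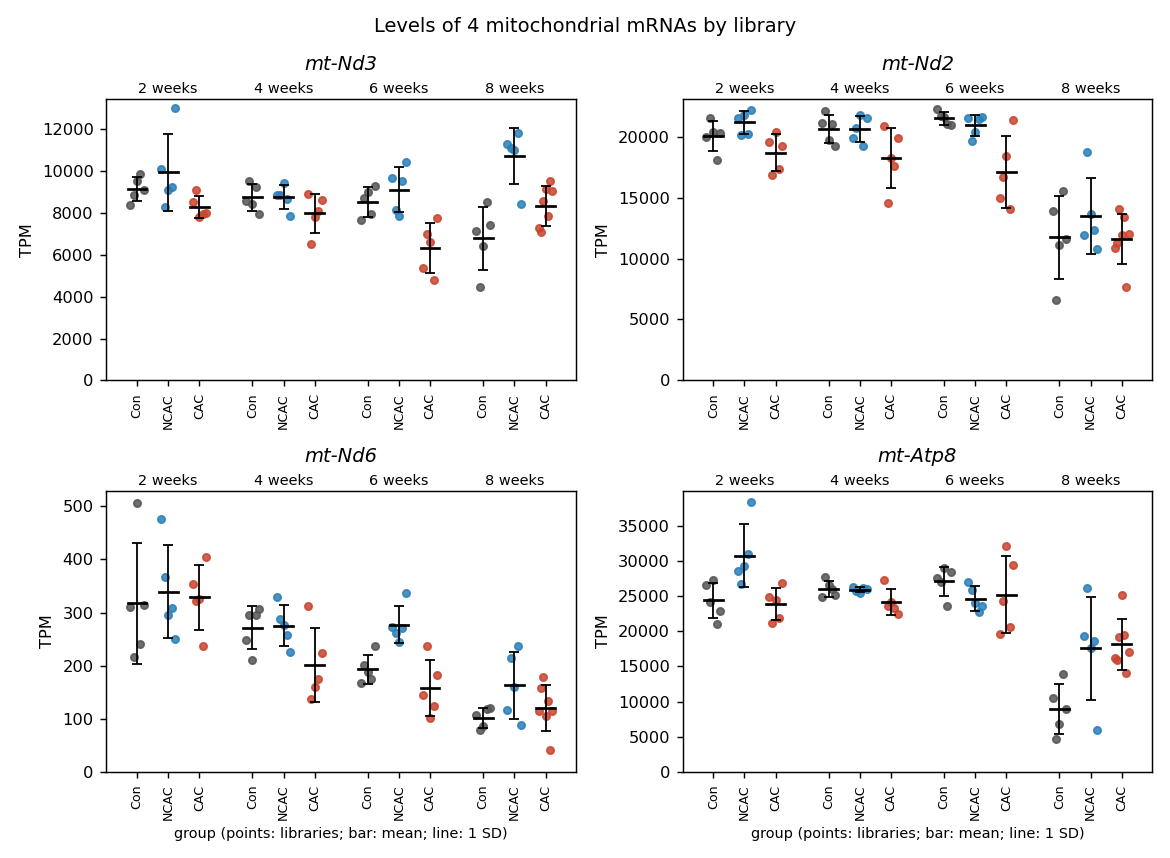
Levels (TPM) of mt-Nd3, mt-Nd2, mt-Nd6 and mt-Atp8 in each library, by week and treatment; points are libraries, bars the group means and lines 1 SD either side. mt-Atp8 in Con at 8 weeks (4711 to 13854 TPM) lies below all Con libraries at 6 weeks (23620 to 28908 TPM), and mt-Nd3 in CAC at 6 weeks lies below NCAC.

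In the mock-injected animals, 5 complex I messages and mt-Atp8 of complex V were lower at 8 than at 6 weeks, and the other members lay lower without passing. Whether the muscles of different weeks were collected or handled together is not given in the sample labels. In every treatment, a difference between weeks therefore cannot be told apart from one in collection or handling. In Con at 8 against 6 weeks 6 of 13 members fell (background 9.65% lower and 54.1% higher), all 13 lay below 0 with a median of −0.54 beside 0.29 over all genes, and 9 of 13 showed no overlap (5.79% of all tested genes lower without overlap). mt-Atp8 fell from 27561, 26915, 28908, 23620 and 28442 TPM at 6 weeks to the 8-week levels given above, none above 13854 TPM, and its log2 fold change was −1.69 ± 0.27 (SE, adjusted p = 0.000259). mt-Nd2 stood at 22305, 21717, 21598, 21039 and 20978 TPM at 6 weeks and at 13895, 6586, 11089, 15520 and 11606 TPM at 8 weeks, and fell by 0.93 ± 0.23 (adjusted p = 0.00412). mt-Nd6 stood at 107, 78.9, 86.9, 119 and 119.9 TPM at 8 weeks, below all Con libraries of 6 weeks, and fell by 0.92 ± 0.14 (adjusted p = 0.000157).

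The other complex I messages that fell in Con from 6 to 8 weeks were mt-Nd4, by 0.77 ± 0.22 (SE, limma adjusted p = 0.00868), mt-Nd1, by 0.62 ± 0.21 (adjusted p = 0.0214), and mt-Nd5, by 0.53 ± 0.21 (adjusted p = 0.0441). mt-Nd4l at −0.65 (adjusted p = 0.0526) and mt-Nd3 at −0.36 (adjusted p = 0.103) did not pass. mt-Atp6, read from 1 transcript with mt-Atp8, did not pass either, at −0.54 (adjusted p = 0.0502). Nor did mt-Co2 at −0.38 (adjusted p = 0.129), mt-Cytb at −0.32 (adjusted p = 0.164), mt-Co1 at −0.36 (adjusted p = 0.21) and mt-Co3 at −0.22 (adjusted p = 0.43). Leaving out each library in turn gave 5 to 8 members, with mt-Nd1, mt-Nd2, mt-Nd4, mt-Nd6 and mt-Atp8 in each case. Without the filter on low values mt-Nd6 alone passed. Median-of-ratios rescaling gave 12 members and a median of −0.92, and the split of all tested genes moved from 7319 higher and 1305 lower to 4299 and 4301.

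In NCAC at 8 against 6 weeks 2 of 13 members fell, a count near the background (12.7% lower and 31.9% higher). They were mt-Nd2, by 0.66 ± 0.20 (SE, limma adjusted p = 0.0225), and mt-Nd6, by 0.84 ± 0.24 (adjusted p = 0.0176), both without overlap (6.3% of all tested genes lower). mt-Nd2 stood at 21578, 19614, 20384, 21447 and 21594 TPM at 6 weeks and at 11901, 18735, 13628, 12374 and 10752 TPM at 8 weeks, where replicate 2 lay nearest to the 6-week range. The other complex I messages lay at −0.56 for mt-Nd4 (adjusted p = 0.0512), −0.54 for mt-Nd4l (adjusted p = 0.0658), −0.43 for mt-Nd5, −0.38 for mt-Nd1 and 0.23 for mt-Nd3. mt-Cytb was at −0.44, mt-Co1, mt-Co2 and mt-Co3 at −0.39, −0.28 and −0.02, and mt-Atp8 and mt-Atp6 at −0.64 and −0.29. Without NCAC replicate 2 of week 8, 10 of 13 passed, with mt-Nd2 at −0.79 (adjusted p = 0.0002) and mt-Atp8 at −0.82 (adjusted p = 0.0458). Without the Myh4 library of week 6, NCAC replicate 3, or without NCAC replicate 1, 4 or 5 of week 6 or replicate 4 of week 8, 1 passed. The split of all tested genes was 4315 higher and 1715 lower, and 3700 and 3578 after median-of-ratios rescaling.

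In CAC at 8 against 6 weeks, 1 of 13 fell, a count near the background (6.77% lower and 32.2% higher). It was mt-Nd2, by 0.56 ± 0.21 (SE, limma adjusted p = 0.0447), a call lost without any 1 of 8 of the 12 libraries. mt-Nd3 was at 0.42 (adjusted p = 0.0795), against the direction of most members. mt-Atp8 was at −0.47 (adjusted p = 0.116), mt-Nd4l at −0.44, mt-Nd6 at −0.43, mt-Nd1 at −0.42, mt-Nd4 at −0.38, mt-Nd5 and mt-Cytb at −0.35, mt-Co1 at −0.33, mt-Atp6 at −0.24, mt-Co2 at −0.15 and mt-Co3 at 0.08. All tested genes split into 4360 higher and 916 lower, and into 3067 and 2775 after median-of-ratios rescaling.

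From 2 to 6 weeks mt-Nd6 was the one member called, in CAC. In Con and in NCAC at 6 against 2 weeks 0 of 13 passed (limma, background 0.0% in each), mt-Nd6 in Con was at −0.66 ± 0.20 (SE, adjusted p = 0.381), and mt-Co1 there did not overlap (0.599% of all tested genes higher), at 0.10. In NCAC the values ran from −0.31 for mt-Atp8 to 0.04 for mt-Cytb. In CAC at 6 against 2 weeks mt-Nd6 alone of the 13 fell (background 4.09% lower and 9.39% higher), by 1.09 ± 0.21 (adjusted p = 0.00623). It stood at 354, 322, 326, 237 and 404 TPM at 2 weeks and at 145, 236, 102, 124 and 182 TPM at 6 weeks, and the groups did not overlap (3.39% of all tested genes lower), though the lowest library of week 2 and the highest of week 6 nearly met. All tested genes split into 1271 higher and 554 lower, and into 1282 and 1112 after median-of-ratios rescaling. mt-Nd3 did not overlap either, at −0.41 (adjusted p = 0.0646), and the other 11 lay between −0.21 for mt-Co2 and 0.06 for mt-Atp8. Without CAC replicate 5 of week 6 the count was 2. The change of the CAC effect over Con between 2 and 6 weeks had 0 of 13 members past the threshold (background 2.5%), with all 13 below 0 and a median of −0.24. From 6 to 8 weeks 0 of 13 passed (background 0.192%), with 12 above 0, mt-Atp8 at 1.22 ± 0.33 (adjusted p = 0.0927) and mt-Nd3 at 0.77 ± 0.23 (adjusted p = 0.129), and without Con replicate 4 of week 8 the count was 1. In the fit of all 62 libraries the same 6-to-8-week change passed for mt-Atp8 (adjusted p = 0.0202) and mt-Nd3 (adjusted p = 0.0172).

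Ratios between members do not depend on the total of a library. mt-Atp8 and mt-Atp6, whose overlap is printed above, are read from 1 shared transcript, and why their levels parted was not tested. Their ratio was examined after its values were seen, as a description. In Con at 8 weeks it was 0.297, 0.189, 0.265, 0.331 and 0.269. In the 45 libraries of weeks 2 to 6 it ranged from 0.452 to 0.745, in the 7 CAC libraries at 8 weeks from 0.427 to 0.620, and in NCAC at 8 weeks it was 0.538, 0.553, 0.421, 0.473 and 0.226. The 5 Con libraries and NCAC replicate 5 of week 8 thus lay below every other library, while CAC at 8 weeks kept a mean of 0.498 ± 0.0609 (SD, n = 7) beside 0.591 ± 0.029 (n = 5) in Con at 6 weeks.

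mt-Nd6 and mt-Cytb are neighbours on opposite strands, and their log2 ratio was lower in each later week of Con and of CAC. Its means at 2, 4, 6 and 8 weeks were −6.69, −6.86, −7.38 and −7.99 in Con. In CAC it had means of −6.49, −7.23, −7.38 and −7.46 at the same weeks. At 8 against 6 weeks in Con it fell by 0.61 (exact two-sided permutation test, p = 0.00794, the smallest that 5 against 5 allows; adjusted over 5 contrasts, p = 0.0397). In CAC against Con it differed by 0.53 at 8 weeks (exact permutation p = 0.0404, adjusted 0.101), −0.37 at 4 weeks (exact permutation p = 0.0873, adjusted 0.146), 0.20 at 2 weeks (exact permutation p = 0.405, adjusted 0.506) and 0.00 at 6 weeks (exact permutation p = 1). Without CAC replicate 6, the Myh4 library, which lay far below its group in this ratio, the adjusted p at 8 weeks was 0.0198. Over all 12 omissions the adjusted exact permutation p ranged from 0.0198 to 0.146, and no other omission brought a pass. mt-Nd6 as a percentage of mt-Nd5, its overlapping partner, was 3.27% in Con at 2 weeks and 1.37% in Con at 8 weeks. The strand used in counting is not given, and reads of mt-Nd5 and mt-Nd6 in their 14 shared bases cannot be told apart without it.

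**Figure D5:**
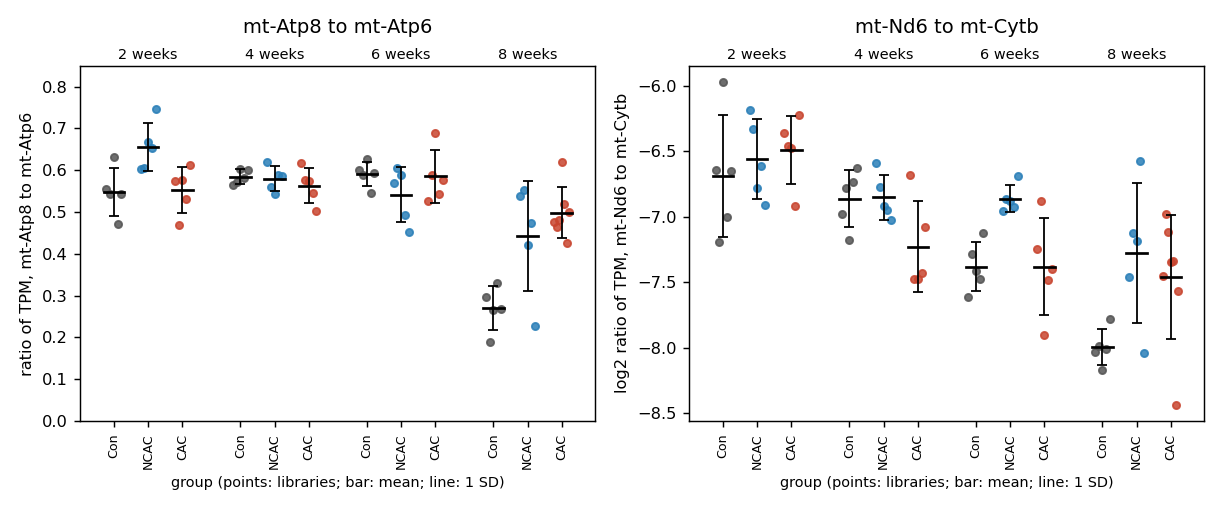
Ratio of mt-Atp8 to mt-Atp6 and log2 ratio of mt-Nd6 to mt-Cytb (both of TPM) in each library, by week and treatment; points are libraries, bars the group means and lines 1 SD either side. The Con libraries of week 8 lie at 0.189 to 0.331 in the first ratio, and the second has group means in Con from −6.69 at 2 weeks to −7.99 at 8 weeks.

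The make-up of the mitochondrial mRNA differed between week 8 and the earlier weeks for some members and not for others. mt-Co1 took 21.4% of it on average in weeks 2 to 6, with a range of 20.5% to 22.3% over 45 libraries, and 21.6% in week 8, with a wider range of 18.6% to 25.3%. mt-Co3 took 11.97% to 13.9% in weeks 2 to 6 and 14.0% to 18.7% in the 17 libraries of week 8, without overlap. mt-Nd2 took 4.69% to 5.77% in weeks 2 to 6 and 3.16% to 4.71% in week 8. The mean of mt-Nd3 was 2.26% in weeks 2 to 6 (1.73% to 3.02%) and 2.97% in week 8 (2.14% to 4.23%), and that of mt-Atp6 11.9% and 12.3%. mt-Atp8 took 3.03 ± 0.60% in Con (n = 5), 5.43 ± 1.75% in NCAC (n = 5) and 6.57 ± 1.07% in CAC (n = 7) at 8 weeks (SD), where its mean in weeks 2 to 6 was 6.86% (5.64% to 8.96%).

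Nuclear subunits went both ways in Con at 8 against 6 weeks, where 54.1% of all tested genes were higher and 9.65% lower, with a median of 0.29. Of complex IV 9 of 12 rose and 0 fell (median 0.55), of complex I 17 rose and 6 fell (of 36, median 0.13), of III 4 rose and 4 fell (of 9, median 0.10) and of V 4 rose and 3 fell (of 15, median −0.04). Atp5e, the epsilon subunit of the ATP synthase, rose by 1.55 (adjusted p = 2.58e-05), from 372 ± 28.1 TPM to 1127 ± 330 TPM, while Uqcrc2, a core protein of complex III, fell by 0.48. The partners Slirp and Lrpprc went opposite ways: Slirp rose by 1.23 ± 0.15 (SE, adjusted p = 4.6e-05), from 19.9 ± 1.17 to 49.2 ± 14.0 TPM, and Lrpprc fell by 0.71 ± 0.21 (adjusted p = 0.0106), from 38.1 ± 2.03 to 23.9 ± 7.27 TPM. Tfb2m fell by 0.30 (adjusted p = 0.0477), while Tfam (−0.10, adjusted p = 0.236), Polrmt (−0.18, adjusted p = 0.129) and Ppargc1a (−0.24, adjusted p = 0.537) did not pass. Grsf1, a protein of mitochondrial RNA granules, fell by 0.42 (adjusted p = 0.00118), and of 35 RNA processing genes 13 rose and 5 fell, with a median of 0.09 beside the 0.29 over all genes.

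Markers of some cell types moved strongly in the same contrast, where 54.1% of all tested genes were higher and 9.65% lower (median 0.29). All 12 macrophage markers rose (median 3.16), as did 7 of 10 adipocyte markers (median 3.11) and all 10 fibro-adipogenic progenitor markers (median 2.41), while 6 of 13 muscle fibre markers fell and 0 rose (median −0.43). Erythroid markers rose in 4 of 5 tested genes and neutrophil markers in 4 of 4. Endothelial markers rose in 4 of 10 (median 0.08) and tendon cell markers in 2 of 10 (median 0.11), with medians below that of all genes. In NCAC at 8 against 6 weeks all 12 macrophage markers rose (median 2.89) and 9 muscle fibre markers fell (background 31.9% higher and 12.7% lower). In CAC 10 muscle fibre markers fell (background 6.77% lower). The part of these markers in the lower mitochondrial mRNA at 8 weeks was not tested.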

How the data were processed

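RNA from soleus muscle was sequenced as TruSeq stranded mRNA libraries on an Illumina sequencer, per the labels' protocols, and 62 libraries in 12 groups were used. The authors deposited TPM values, and the submitters' processing notes name mm10 as the build. The aligner was not given in the sources used here, nor was the quantifier. Since TPM keeps no read depth, no counting interval was computed. The members and lists were chosen with earlier results of these data known.

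A level of 1 TPM or more in 5 or more libraries was required for testing, which 13529 of 47643 genes reached, on the scale log2(TPM + 1) with limma 3.58.1 (R 4.3.3) and an intensity trend. Fold changes on this scale understate the change of low genes. Treatments were compared within a week on that week's libraries, weeks within a treatment on the 2 groups, and differences of effects on the 4 groups. Adjusted p values are Benjamini-Hochberg over all tested genes, and passing means a value under 0.05. A fit of all 62 libraries was an alternative, since the spread was larger at 8 weeks. The log2 ratio of mt-Nd6 to mt-Cytb was tested by exact two-sided permutation. The procedure was tested on simulated data. Named were all members, with tRNAs by count, up to 4 genes per list and comparison with the smallest adjusted p, and Tfam, Polrmt, Tfb2m, Lrpprc, Slirp and Ppargc1a whatever their result; lists without a passing gene are given by count. Positions and sequences are from GENCODE M21, in which 45134 of the listed symbols (94.7%) were found. Fits without an intensity trend and without libraries of at least 500 TPM of Myh4 were chosen after seeing the data. Figures used matplotlib 3.10.9.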

Additional observations from a re-analysis of the deposited data

Results flagged for a closer look

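Of 204 sets of values in groups of 5 or 7 libraries, 12 held a library far from the others of its group, where chance gives about 1 in 20. CAC replicate 6 at 8 weeks, a library with at least 500 TPM of Myh4, held 5 of them. It was lowest for mt-Nd4l at 6149 TPM (next 11220), for mt-Nd4 at 9662 TPM (next 15100) and for mt-Nd5 at 3762 TPM (next 6327). Its log2 ratio of mt-Nd6 to mt-Cytb was −8.44 (next −7.57) and its ratio of mt-Nd4l to mt-Nd4 0.636 (next 0.725).

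NCAC replicate 2 at 8 weeks was highest for mt-Co1 at 85540 TPM (next 63110) and mt-Nd5 at 11070 TPM (next 7557). NCAC replicate 5 at 8 weeks was lowest for mt-Co3 at 37250 TPM (next 51220) and mt-Nd3 at 8410 TPM (next 11000). Con replicate 4 at 2 weeks was lowest for mt-Co1 at 73500 TPM (next 81100), for mt-Nd4l at 13150 TPM (next 16830) and for the mitochondrial share, at 35.9% (next 38.0%).

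mt-Nd3 lay below the mean of Con in every CAC library at 2 and 6 weeks, and above it in every one at 8 weeks, on the log2 scale. The fold change was −0.14 at 2 weeks and 0.32 at 8 weeks, a difference of 0.46 that was not tested. It was −0.45 at 6 weeks, a difference from 8 weeks of 0.77 that did not pass in limma (adjusted p = 0.129).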

How the results depend on the processing

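The depth of the libraries is unknown, which limits low levels most, and the precision is that of 5 to 7 libraries a group. The planned ratio of mt-Rnr2 to mt-Cytb could not be computed, since mt-Rnr2 is listed at 0. No called member changed sign under any alternative run. Of the 25 called gene values, 24 were kept with a pseudocount of 0.1, 5 without a filter, 19 with median-of-ratios rescaling, 23 when scaled to genes outside the mitochondrial genome, 21 in a fit of all 62 libraries, 25 without an intensity trend and 21 with the replicate block. Leaving out each library kept 168 of 254 and lost 86. The cause of the changes below was not tested.

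The counts of members that passed moved as follows. Without a filter, 0 passed in CAC against Con at 6 weeks, 2 in CAC against NCAC at 6 weeks, 0 in CAC against Con at 8 weeks, and 1, 1 and 0 at 8 against 6 weeks in Con, NCAC and CAC. With median-of-ratios rescaling, 4 passed in CAC against Con at 6 weeks, 0 at 8 weeks, and 12, 5 and 3 at 8 against 6 weeks in Con, NCAC and CAC. Scaled to genes outside the mitochondrial genome, 0 passed in CAC against Con at 8 weeks, and 11 and 5 in Con and NCAC at 8 against 6 weeks. With a pseudocount of 0.1, 0 passed in CAC against Con at 8 weeks. In the fit of all 62 libraries, 3, 3 and 2 passed at 8 weeks in CAC against Con, CAC against NCAC and NCAC against Con, 12, 11 and 9 at 8 against 6 weeks in Con, NCAC and CAC, 2 in CAC at 6 against 2 weeks, and 2 for the change of the CAC effect from 6 to 8 weeks. Without the intensity trend, 2 passed in CAC against NCAC at 4 weeks, and 11, 8 and 3 at 8 against 6 weeks in Con, NCAC and CAC. Without the Myh4 libraries, 1 passed in NCAC at 8 against 6 weeks.

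Same-numbered libraries correlated with medians of −0.07 to 0.05 by week, so the numbers do not pair them. With the replicate block, 0 passed in CAC against Con at 8 weeks, 1 in NCAC and 0 in CAC at 8 against 6 weeks; the other counts stayed within 1.5 times.

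Leaving out each library in turn gave 0 to 1 in CAC against Con and 0 to 3 in CAC against NCAC at 4 weeks, 0 to 10 and 2 to 10 at 6 weeks, and 0 to 1 in CAC against Con at 8 weeks. It gave 5 to 8, 1 to 10 and 0 to 1 at 8 against 6 weeks in Con, NCAC and CAC, 1 to 2 in CAC at 6 against 2 weeks, and 0 to 1 for the change of the CAC effect from 6 to 8 weeks. The log2 ratio of mt-Nd6 to mt-Cytb ranged from −0.13 to 0.13 in CAC against Con at 6 weeks, with values of −0.03, −0.13, −0.06, −0.01 and −0.02 on the other side of 0. It ranged from 0.45 to 0.69 in CAC against Con at 8 weeks, and from −0.67 to −0.55 in Con at 8 against 6 weeks. In the latter the exact permutation p adjusted over 5 contrasts was 0.0794 in each case. That is the smallest value this test allows with 1 library left out, so it could not pass there whatever the libraries held.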
